A study of Homo sapiens with 6 samples.

Results

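The mitochondrial calcium uniporter and the voltage-dependent anion channels were followed at the transcript level in HEK293, a line of cells derived from human embryonic kidney. The 9 genes were MCU, SMDT1, MICU2, MICU3, MCUR1, LETM1, VDAC1, VDAC2 and VDAC3, taken by symbol from the 60564 genes of the count table, and each symbol matched 1 row. All 9 were among the 18797 genes with enough counts to be tested. The first group held 3 libraries from cells that stably overexpress SFXN2 (titled OE_HA), and the other held 3 libraries from cells whose genotype is given as WT (titled NC_HA). SFXN2 encodes sideroflexin 2, a mitochondrial carrier, which the series title names as a substrate of Parkin in apoptosis after mitochondrial dysfunction. All 6 libraries were made from total RNA after removal of ribosomal RNA. The labels do not say whether the overexpressing line is a clone or a pool, which promoter drives SFXN2, or whether the WT cells carry an empty vector. No label says that replicates came from separate cultures, so the p-values reflect the spread among these libraries alone, and that spread may be technical.

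Calcium enters mitochondria in 2 steps. It first crosses the outer membrane through VDAC channels, which also pass ATP, ADP and other metabolites, and which are known targets of ubiquitination by Parkin. It then crosses the inner membrane through the uniporter, a calcium-selective channel driven by the membrane potential. MCU forms the pore, and EMRE (the product of SMDT1) is needed for the animal channel to conduct and tethers the gatekeepers. The gatekeepers are EF-hand proteins of the MICU family, MICU2 among them, that keep the channel closed at low cytosolic calcium. MCUR1 is described as an assembly factor of the complex, and LETM1 is an inner membrane protein of cation and proton exchange. In HEK293 cells, as in other cell lines, this uptake links calcium release from the endoplasmic reticulum to respiration and, when overloaded, to cell death.

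Library totals were 40043248, 52958006 and 59963713 counts in overexpression replicates 1, 2 and 3, against 32121527, 41217867 and 35839222 counts in WT replicates 1, 2 and 3. The 9 genes had between 132 counts (MICU3) and 18110 counts (VDAC1) in a library, so none was near the floor of 3 counts. SFXN2 stood at 1734 ± 196 CPM with overexpression and 36.3 ± 8.44 CPM in WT (SD, n = 3 each; CPM is the count scaled to a common library total with TMM factors), so each library matched its label. All 6 HEK293 markers (PAX2, LHX1, EYA1, NEFL, NEFM and VIM) averaged 1 CPM or more. Their summed level was 930.5 to 1021 CPM with overexpression and 908 to 984 CPM in WT. VIM made up most of that sum, with a mean of 785 CPM with overexpression and 754 CPM in WT. The sum therefore says little about the other markers of this list. The lowest of them was PAX2, at 4.65 CPM with overexpression and 5.43 CPM in WT. Among markers of other cells, 2 of 5 for mature kidney, 1 of 6 for fibroblasts and 0 of 6 for blood and immune cells averaged 1 CPM or more. UMOD and HBB had no count in any library. The kidney markers above 1 CPM were LRP2, at 39.2 CPM with overexpression and 52.0 CPM in WT, and AQP1, at 1.71 and 1.30 CPM. The fibroblast marker was COL1A1, at 15.1 CPM with overexpression and 16.3 CPM in WT. LRP2 and COL1A1 thus averaged above PAX2, LHX1 and EYA1 in both groups. Fewer cells expressing a gene and less RNA per cell cannot be told apart in bulk RNA.

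By symbol, VDAC1 has the most pseudogenes of the members, 13 in the count table. Some of its reads may therefore be hard to assign. Processed pseudogenes are intronless copies of an mRNA elsewhere in the genome. The first 60 coding bases of VDAC1 and of the same stretch in 2 counted pseudogenes are shown for this reason, 5′ to 3′, from GENCODE 29 transcripts on GRCh38, with capitals marking each base that differs from VDAC1. VDAC1 lies on the minus strand of chromosome 5, VDAC1P1 on the plus strand of chromosome X and VDAC1P8 on the plus strand of chromosome 6. VDAC1P8 is annotated as a transcribed processed pseudogene, with a gene model from 143490424 to 143506406. Whether its counts come from its own RNA was not tested.
VDAC1: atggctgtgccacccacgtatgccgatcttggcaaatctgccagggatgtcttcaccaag
VDAC1P1: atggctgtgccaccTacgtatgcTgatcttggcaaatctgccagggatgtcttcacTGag
VDAC1P8: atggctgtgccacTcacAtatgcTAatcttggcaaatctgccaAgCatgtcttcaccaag
VDAC1P1 differed at 4 of these 60 bases and VDAC1P8 at 6. Over the whole aligned coding sequence, VDAC1P1 was 97.4% identical to VDAC1, with a longest exact shared run of 149 bases, which is room for a short read that cannot be placed from sequence alone. The 13 VDAC1 pseudogenes in the table together held 58 to 141 counts per library, at most 0.866% of the VDAC1 count in the same library. The sources used here do not state how the authors counted reads that match several places. The 3 VDAC genes themselves are far apart in sequence. VDAC1 and VDAC2 shared 72.7% of aligned coding bases and a longest exact run of 13 bases, VDAC1 and VDAC3 68.7% and 11 bases, and VDAC2 and VDAC3 73.2% and 17 bases.

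None of the 9 transcripts passed the test for a difference between SFXN2-overexpressing and WT cells. In edgeR's quasi-likelihood test 0 of 9 passed a Benjamini-Hochberg adjusted p of 0.05, against 0.0106% of all tested genes (2 of 18797, SFXN2 itself included). The smallest adjusted p among the members was 0.95. No member had an unadjusted p below 0.05 either, against 4.76% of all tested genes, and DESeq2 and limma-voom also called 0 of 9, against 0.0596% and 0.016% of the genes each of them tested. The CPM ranges of both groups overlapped for all 9 genes, while they did not overlap for 9.16% of tested genes. The median log2 fold change of the 9 genes, overexpression over WT, was 0.032, beside 0.0060 over all tested genes, with 5 positive and 4 negative values. For 8 of the 9 genes, all but MICU3, the 95% interval was inside -0.5 to 0.5 on the log2 scale, which held for 44.4% of all tested genes. The median SE was 0.14 among the members and 0.17 over all tested genes, and a smaller SE gives a narrower interval.

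**Figure D1:**
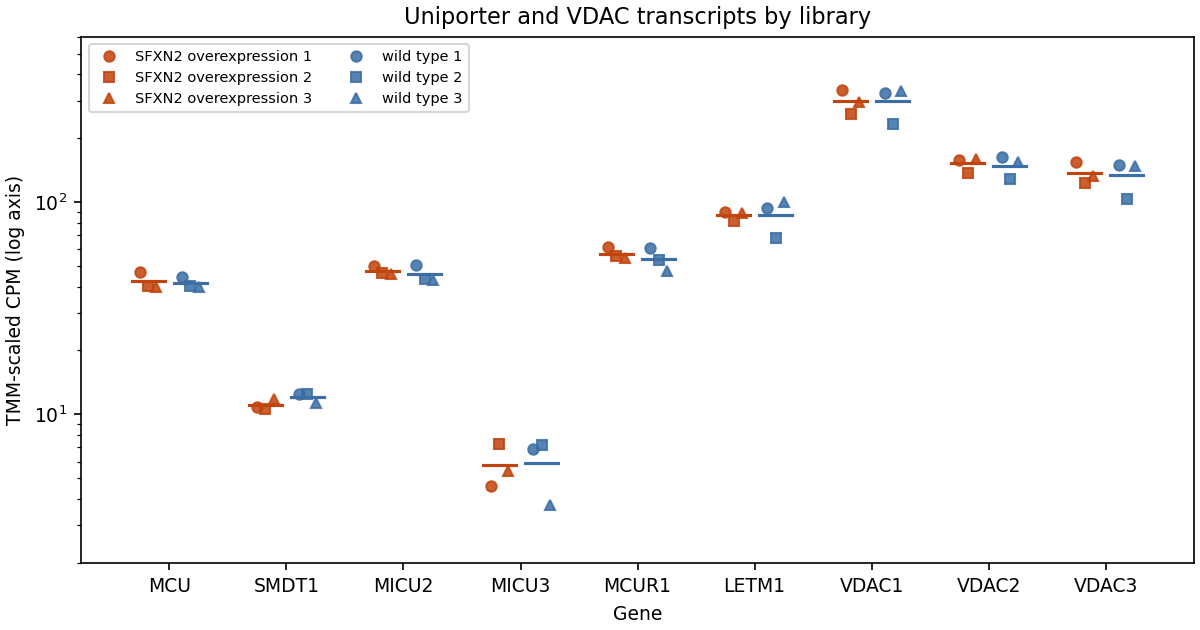
TMM-scaled CPM (log axis) of the 9 genes in each library; orange marks SFXN2 overexpression, blue marks wild type, marker shape gives the replicate number and the short line is the group mean. The 2 groups overlap for every gene, from MICU3 at 3.73 to 7.24 CPM up to VDAC1 at 234 to 337 CPM.

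MCU, the pore subunit (ENSG00000156026; chromosome 10, 72692131 to 72887694, plus strand, GRCh38), was measured at 47.0, 40.1 and 39.8 CPM in overexpression libraries 1, 2 and 3, and at 44.3, 40.1 and 39.6 CPM in WT replicates 1, 2 and 3. Replicate 1 was the highest library in both groups and the other 4 libraries lay between 39.6 and 40.1 CPM. MCU had a log2 fold change of 0.033 (SE 0.11, 95% interval -0.21 to 0.27, edgeR adjusted p = 0.984), which as a fold change spans 0.866 to 1.21. MCU overlaps 4 small gene models inside its span, on the same strand, that held at most 2 counts in a library.

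SMDT1, which encodes the channel's essential small partner EMRE (ENSG00000183172; chromosome 22, 42079691 to 42084284, plus strand), had 10.8, 10.6 and 11.8 CPM with overexpression, against 12.5, 12.5 and 11.3 CPM in WT. Its overexpression libraries 1 and 2 lay below all WT libraries and library 3 did not. Its log2 fold change, -0.13 (SE 0.14, 95% interval -0.45 to 0.19, edgeR adjusted p = 0.95), was the farthest from 0 of the 9, and the smallest fold inside its interval was 0.733.

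MICU2 and MICU3, both of the MICU family, differed in level and in spread. MICU2, which helps to hold the pore shut (ENSG00000165487; chromosome 13, 21492691 to 21604214, minus strand), had 49.98, 46.3 and 45.9 CPM with overexpression, against 50.7, 43.5 and 43.0 CPM in WT. Replicate 1 was again the highest library in each group, and the fold interval was 0.883 to 1.22 (edgeR adjusted p = 0.97). MICU3, a paralog known mainly from neurons as an enhancer of uptake (ENSG00000155970; chromosome 8, 17027238 to 17122644, plus strand), had 4.61, 7.24 and 5.42 CPM with overexpression, against 6.87, 7.14 and 3.73 CPM in WT. These rest on 179, 398 and 331 counts with overexpression and 217, 294 and 132 counts in WT. MICU3 was the lowest and the most variable member. Its SD within groups was 0.43 on the log2 CPM scale, higher than that of 78.9% of tested genes, while MCU, SMDT1 and MICU2 had 0.11, 0.084 and 0.11. Its fold interval, 0.627 to 1.51 (edgeR adjusted p = 0.993), was accordingly the widest.

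MCUR1, the assembly factor (ENSG00000050393; chromosome 6, 13786557 to 13814568, minus strand), had 61.4, 55.7 and 54.5 CPM with overexpression, against 60.6, 53.1 and 47.2 CPM in WT. It was the only member with the same sign in all 3 replicate numbers, higher with overexpression by 0.019, 0.068 and 0.21 on the log2 CPM scale. Such agreement was found for 30.2% of tested genes. Its log2 fold change was 0.092 (SE 0.11, 95% interval -0.16 to 0.35, edgeR adjusted p = 0.953). LETM1, the cation exchange protein (ENSG00000168924; chromosome 4, 1811479 to 1856247, minus strand), had 89.9, 81.5 and 88.4 CPM with overexpression, against 93.6, 68.1 and 99.9 CPM in WT. The WT libraries spanned the overexpression libraries on both sides, with WT replicate 2 the lowest. The fold interval of LETM1 was 0.800 to 1.23 (edgeR adjusted p = 0.995).

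The outer membrane channels were the most abundant members. VDAC1, the main isoform in most cells (ENSG00000213585; chromosome 5, 133971915 to 134005133), was measured at 337, 260.3 and 296 CPM in overexpression libraries 1, 2 and 3, and at 326, 234 and 335 CPM in WT replicates 1, 2 and 3. Replicate 2 was the lowest library of each group. The means were 298 ± 38.5 CPM with overexpression and 298 ± 56.0 CPM in WT (SD, n = 3 each), and the fold interval was 0.791 to 1.26 (edgeR adjusted p = 0.999). VDAC2, which is also known for holding BAK at the outer membrane (ENSG00000165637; chromosome 10, 75210154 to 75231448, plus strand), had 158, 138 and 159 CPM with overexpression, against 164, 128 and 154 CPM in WT. VDAC3 (ENSG00000078668; chromosome 8, 42391624 to 42405897, plus strand) had 155, 123 and 133 CPM with overexpression, against 149, 104 and 148 CPM in WT. Replicate 2 was the lowest library of each group for both. The fold intervals were 0.853 to 1.23 for VDAC2 and 0.810 to 1.30 for VDAC3, with edgeR adjusted p of 0.985 and 0.987.

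**Figure D2:**
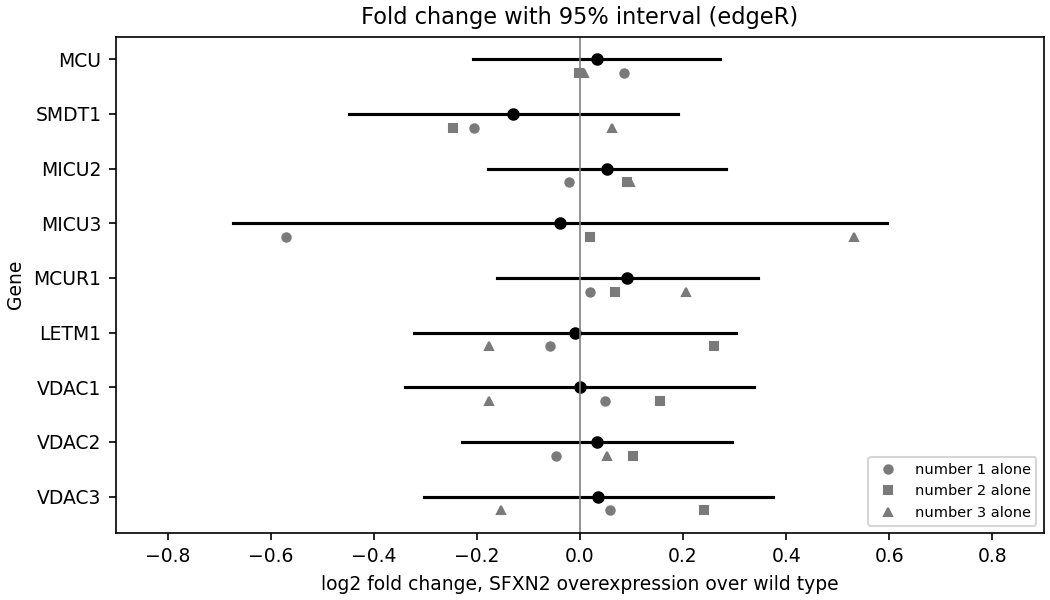
Log2 fold change of each gene, SFXN2 overexpression over wild type, from edgeR (black point) with its 95% interval (line), and the log2 CPM difference within each replicate number (grey symbols). All 9 intervals include 0, and the MICU3 interval, -0.67 to 0.60, is the widest.

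Libraries with the same replicate number deviated alike for many of the members. Samples with the same number deviated together from their group means over all tested genes, with correlations across genes of 0.242, 0.327 and 0.19 for numbers 1, 2 and 3, and genes are not independent replicates. Among the members, WT replicate 1 was above its group mean for 9 of 9 genes and overexpression replicate 1 for 7 of 9. Overexpression replicate 2 was below its group mean for 8 of 9 and WT replicate 2 for 7 of 9. VDAC1 deviated by 0.19, -0.19 and 4.66e-05 log2 CPM in overexpression replicates 1, 2 and 3, and by 0.15, -0.33 and 0.19 in WT replicates 1, 2 and 3. LETM1 and VDAC3 deviated by -0.34 each in WT replicate 2, while MICU3 deviated by 0.33 in that library. The 4 genes LETM1, VDAC1, VDAC2 and VDAC3 were thus lowest in replicate 2 of each group, and MCU, MICU2 and MCUR1 were highest in replicate 1 of each group. The labels do not say what the replicate number stands for. With the number as a block in the edgeR fit, the smallest adjusted p among the members was 0.708 (MCUR1) and 0 of 9 passed, against 0.00532% of tested genes.

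**Figure D3:**
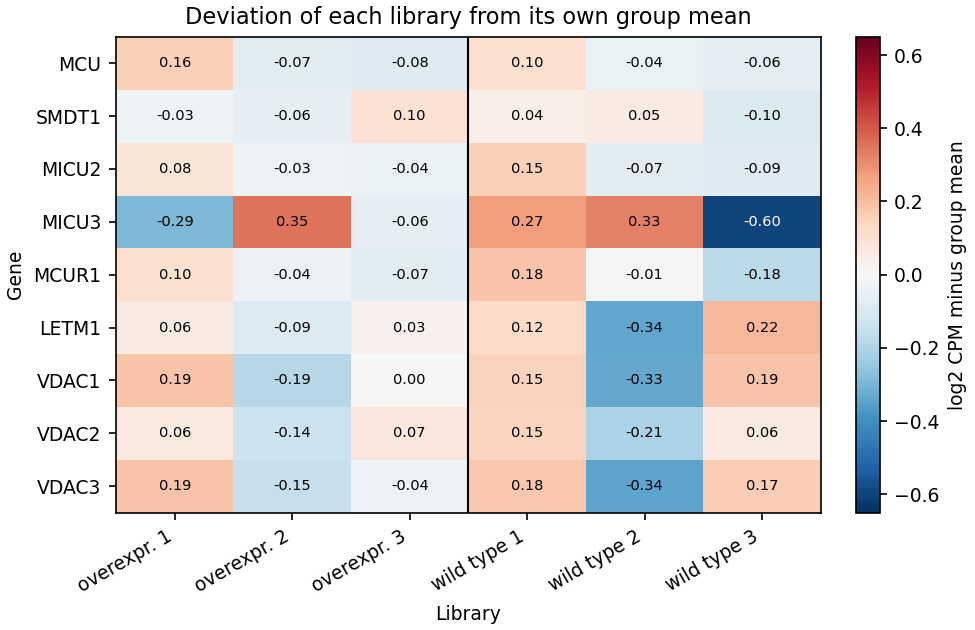
Deviation of each library from its own group mean in log2 CPM (colour and printed value), for the 9 genes (rows) and 6 libraries (columns, SFXN2 overexpression left of the line, wild type right). MCU, MICU2, MCUR1, LETM1 and the 3 VDAC genes are negative in replicate 2 of both groups, and MICU3 runs from -0.60 to 0.35.

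Levels between genes were compared per kilobase of annotated exon, as CPM per kb of the union of all exons in GENCODE 29. This length counts rarely used exons and ends as well, so it sets the order only roughly. VDAC1 led at 94.2 ± 12.2 CPM per kb with overexpression and 94.3 ± 17.7 CPM per kb in WT (SD, n = 3 each). VDAC2 followed at 53.7 ± 4.36 CPM per kb with overexpression and 52.5 ± 6.48 CPM per kb in WT, and VDAC3 at 43.6 ± 5.25 CPM per kb with overexpression and 42.5 ± 8.19 CPM per kb in WT. VDAC2 was above VDAC3 in 6 of 6 libraries although their ranges over libraries overlapped. The uniporter genes and LETM1 lay well below all 3 channels. Over the 6 libraries MICU2 ranged from 11.8 to 13.9 CPM per kb, LETM1 from 8.32 to 12.2, MCU from 8.74 to 10.4 and MCUR1 from 7.79 to 10.1, each overlapping its neighbour in the order. MCU exceeded MCUR1 in 3 of 6 libraries, so these cannot be ordered. SMDT1 came next at 6.10 to 7.24 CPM per kb, below MCUR1 in every library, and MICU3 last at 0.810 to 1.57 CPM per kb.

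Ratios within a library do not depend on the scaling between libraries, and 7 ratios were compared between the groups, whose ranges overlapped for each. They were tested two-sided with the exact permutation test over samples, which cannot give a p below 0.1 with 3 against 3. MICU2 per MCU, the balance of gatekeeper to pore, was 1.40 ± 0.066 with overexpression and 1.37 ± 0.043 in WT (counts per kb; SD, n = 3 each; exact permutation p = 0.8). SMDT1 per MCU was 0.602, 0.690 and 0.776 in overexpression replicates 1, 2 and 3, against 0.736, 0.818 and 0.747 in WT replicates 1, 2 and 3. That was the smallest p of the 7 (exact permutation p = 0.3, adjusted p = 1.0), with 1 of 3 numbers higher in overexpression cells. MCUR1 per MCU was 1.01 ± 0.032 with overexpression and 0.969 ± 0.069 in WT, and LETM1 per MCU was 1.14 ± 0.085 with overexpression and 1.17 ± 0.23 in WT (SD, n = 3 each), with exact permutation p of 0.5 and 0.9.

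The make-up of the VDAC pool was likewise close. VDAC1 took 50.7 ± 0.98% of the summed VDAC counts with overexpression and 51.3 ± 1.22% in WT, VDAC2 took 25.96 ± 1.43% with overexpression and 25.8 ± 1.68% in WT, and VDAC3 took 23.3 ± 0.65% with overexpression and 22.9 ± 0.57% in WT (SD, n = 3 each). VDAC1 per VDAC2 was 1.75 ± 0.13 with overexpression and 1.79 ± 0.16 in WT (counts per kb; SD, n = 3 each; exact permutation p = 0.8). The 3 channels together held 20.5 ± 1.34 times the per-kb count of MCU with overexpression and 20.7 ± 3.29 times in WT (SD, n = 3 each). WT replicates 2 and 3 marked both ends of that per-kb ratio, at 17.2 and 23.7. The test for the 3 channels used their summed counts over the MCU count, without division by exon length (exact permutation p = 1.0).

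**Figure D4:**
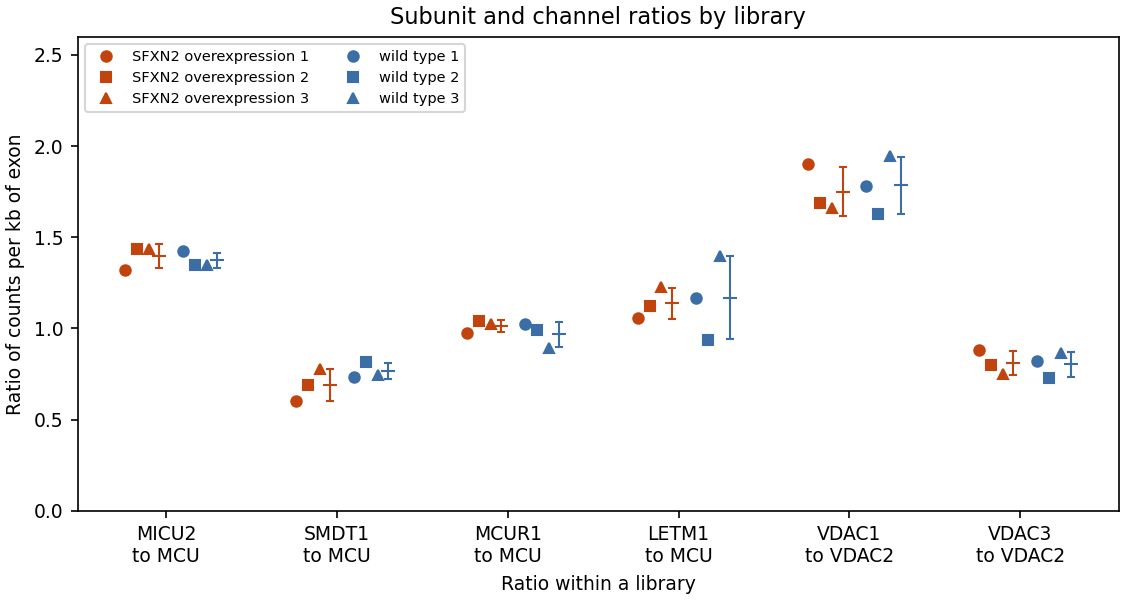
Ratios of counts per kb of exon within each library, with SFXN2 overexpression in orange and wild type in blue; the dash and bar beside the points give the mean and SD (n = 3 each). SMDT1 to MCU spans 0.602 to 0.776 with overexpression and 0.736 to 0.818 in wild type, and the groups overlap for every ratio.

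Other genes of mitochondrial calcium handling were read from the same fit. Of 63 such genes, all tested, 0 passed in edgeR, 0 had an unadjusted p below 0.05 (4.76% of all tested genes did), and DESeq2 called 0, with 1 at an unadjusted p below 0.05. With the replicate number as a block 0 passed and 3 had an unadjusted p below 0.05, against 8.32% of all tested genes. Without overexpression replicate 1, 0 passed and 4 had an unadjusted p below 0.05, beside 2295 genes over that whole fit. Leaving out any other library gave 0 to 2 such genes, beside 304 to 1505 over the whole fit. For DESeq2 and the fits without a library these are counts of genes, not shares of those tested. The median log2 fold change of the 63 genes in edgeR was -0.013. Their median SE was 0.12, beside 0.17 over all tested genes, and a smaller SE gives a narrower interval. The 95% interval was inside -0.5 to 0.5 for 47 of the 63 (74.6%), beside 44.4% of all tested genes. It was inside -1 to 1 for 62 of the 63, beside 72.6% of all tested genes, the exception being RYR3, a ryanodine receptor with a mean of 0.259 CPM with overexpression and 0.105 CPM in WT. The group ranges did not overlap for 3 of 63 genes, beside 9.16% of all tested genes. These were STIM1, SPG7 and RMDN3.

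Among 8 further regulators of the uniporter the median log2 fold change was -0.083, with 2 positive and 6 negative values and 0 passing. MCUB, the dominant-negative pore paralog, stood at 22.8 ± 1.34 CPM with overexpression and 24.7 ± 2.80 CPM in WT (SD, n = 3 each; edgeR adjusted p = 0.947). MAIP1, which guards newly made EMRE from degradation, had the smallest unadjusted p of this list. It stood at 14.7, 13.5 and 15.4 CPM with overexpression, against 13.5, 10.9 and 11.9 CPM in WT (log2 fold change 0.26, SE 0.15, edgeR adjusted p = 0.93). EFHD1, a mitochondrial EF-hand protein, came second, at 28.9 ± 8.81 CPM with overexpression and 34.7 ± 3.47 CPM in WT. SPG7, a subunit of the inner membrane protease that clears unassembled EMRE, had 87.7, 91.3 and 89.7 CPM with overexpression, against 92.9, 93.5 and 102 CPM in WT (edgeR adjusted p = 0.936).

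Of 5 genes of calcium efflux and proton exchange, 0 passed and the median was 0.045. GHITM, an inner membrane protein of calcium and proton exchange, stood at 196, 191 and 221 CPM with overexpression, against 183, 157 and 191 CPM in WT (log2 fold change 0.20, SE 0.11, edgeR adjusted p = 0.93). It was higher with overexpression in all 3 numbers, as were 30.2% of tested genes in one direction or the other. LETMD1, a LETM-domain protein of the inner membrane, stood at 40.0 ± 3.19 CPM with overexpression and 47.8 ± 9.14 CPM in WT (SD, n = 3 each), and SLC8B1, the sodium-calcium exchanger of mitochondria, at 5.81 ± 0.76 CPM with overexpression and 6.90 ± 0.55 CPM in WT.

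The 17 genes of endoplasmic reticulum release and contact sites had a median of 0.026. Another list of 12 genes, of store filling, calcium entry and plasma membrane calcium pumps, had a median of 0.014. In either list 0 passed. ITPR3, an inositol trisphosphate receptor, stood at 111, 123 and 91.0 CPM with overexpression, against 102, 168 and 152 CPM in WT (log2 fold change -0.38, SE 0.18, edgeR adjusted p = 0.93). Overexpression replicates 1 and 2 lay within the WT range, and replicate 3 lay below it. PACS2, a sorting protein of the contact sites, had a log2 fold change of -0.21. RMDN3, a contact-site tether, had 39.8, 42.6 and 44.6 CPM with overexpression, against 38.5, 38.6 and 38.8 CPM in WT (edgeR adjusted p = 0.93). STIM1, the calcium sensor of the store, had the smallest unadjusted p of all 63 genes, 0.0607. It stood at 61.1, 57.2 and 50.9 CPM with overexpression, against 62.6, 69.0 and 64.6 CPM in WT (log2 fold change -0.21, SE 0.10, edgeR adjusted p = 0.93). ATP2B4, a plasma membrane calcium pump, came second in that list with a log2 fold change of -0.089.

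Of 11 partners of VDAC and genes of the permeability transition, 2 had a positive and 9 a negative value, with a median of -0.031 and 0 passing. TSPO, an outer membrane protein that binds VDAC, stood at 9.29, 5.56 and 8.03 CPM with overexpression, against 7.63, 10.2 and 11.4 CPM in WT (log2 fold change -0.35, SE 0.23, edgeR adjusted p = 0.93). SLC25A6, an adenine nucleotide carrier, had a log2 fold change of -0.13. The 10 calcium-sensitive matrix enzymes and carriers had a median of -0.046 and 0 passing. PDP1, the calcium-activated phosphatase of pyruvate dehydrogenase, stood at 14.7 ± 2.17 CPM with overexpression and 12.4 ± 0.31 CPM in WT (SD, n = 3 each), and IDH3G, a subunit of isocitrate dehydrogenase, at 46.5 ± 1.92 CPM with overexpression and 52.5 ± 9.99 CPM in WT. Both had an edgeR adjusted p of 0.93.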

How the data were processed

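RNA sequencing of 6 HEK293 samples gave 2 tables. The authors deposited raw counts per Ensembl gene, per the file headers and the values, and a log2 table, whose deposited values are log2(x + 1), with x the count over one constant for each sample. Trimming used Trim Galore 0.4.4 and the build is hg38 (per the submitters' processing notes); no source used here names the aligner, counter or annotation. The kit does not mark strand. The test was edgeR 4.0.16 in R 4.3.3, with TMM scaling, filterByExpr (minimum count 10), robust quasi-likelihood test with group as the term, Benjamini-Hochberg adjustment over 18797 genes, threshold 0.05. The SE is the log2 fold change over the square root of F. The common biological coefficient of variation was 0.204. Log2 CPM used a prior count of 2. No 2 replicates agreed within sampling noise (the smallest chi-square over its degrees of freedom was 16.3). Same-numbered samples deviated together (0.242, 0.327 and 0.19, each above 0.1). Pairing by number thus rests on the data, not on a stated design. It was used only in the replicate block and in the sign-flip test of the ratios. The main edgeR fit, its SE and intervals, and the permutation test of the ratios left it out. Ratios were tested with scipy 1.17.1. Coordinates and exon lengths came from GENCODE 29 (GRCh38). Members and lists were chosen with earlier results of these data known. Named were all members, the 2 smallest unadjusted p per list, and for MCU and VDAC1 the 3 genes most like each. MCUB, SPG7, SLC8B1, RMDN3 and RYR3 were named after their values were seen. Other settings were DESeq2 1.42.0, limma-voom (limma 3.58.1), 2 other scalings, 2 other filters, the replicate block, the log2 table, added pseudogene counts and leaving out each sample. Some genes of the lists are not reported here. Counting floors cover counting error only.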

Additional observations from a re-analysis of the deposited data

How the results depend on the processing

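No member passed the threshold under any of the 15 alternatives (135 values), and no gene of the 63 in the other lists did. The members' smallest adjusted p was 0.708 (MCUR1 with the replicate block). Over all genes the number called was 12 with DESeq2 and 1 with the replicate block, against 2 in edgeR, and 1 to 3 when one library was left out. The replicate block changed no other call. The log2 fold changes near 0 changed sign with the setting; the cause was not tested. VDAC1, at -0.00084, was 0.025 with library size alone, 0.00048 with DESeq2, 0.0099 with limma-voom, 0.0031 with the filter of 1 CPM, 0.0095 with the replicate block, 0.010 on the log2 table and 0.0019 with pseudogene counts added. LETM1, at -0.0096, was 0.019 with library size alone, 0.011 with limma-voom, 0.0078 with the replicate block and 0.0091 on the log2 table. MICU3 was 0.0067 with limma-voom. Leaving out one library gave -0.052 to 0.078 for MCU, -0.28 to 0.12 for MICU3, -0.16 to 0.099 for LETM1, -0.15 to 0.090 for VDAC1, -0.065 to 0.099 for VDAC2 and -0.12 to 0.11 for VDAC3. It gave -0.19 to -0.10 for SMDT1, 0.0087 to 0.13 for MICU2 and 0.0073 to 0.18 for MCUR1, which kept their sign under all 15. Among the log2 ratios leaving out one library gave -0.17 to 0.12 for LETM1 to MCU, -0.091 to 0.036 for VDAC1 to VDAC2, -0.057 to 0.067 for VDAC3 to VDAC2, -0.14 to 0.099 for the VDAC sum to MCU and, with the sign kept, -0.25 to -0.066 for SMDT1 to MCU, 0.0086 to 0.11 for MCUR1 to MCU and 0.0043 to 0.065 for MICU2 to MCU. Pairing the ratios by replicate number gave exact sign-flip p of 0.5 or 1.0, where 0.25 is the smallest possible.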

Other observations

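The genes whose levels moved most like MCU and VDAC1 over the 6 libraries are given as a description. Among 10549 other genes with a mean of 10 CPM or more, those closest to MCU were HACD3, an enzyme of very long chain fatty acid synthesis (Pearson r 0.998), NCKAP1, a subunit of the WAVE complex (0.992), and BASP1, a membrane-bound signalling protein (0.991). HACD3 was measured at 375, 317 and 315 CPM in overexpression libraries 1, 2 and 3, and at 352, 318 and 309.6 CPM in WT replicates 1, 2 and 3. Closest to VDAC1 were PFN1, an actin-binding protein (0.997), PRDX4, a peroxiredoxin of the endoplasmic reticulum (0.995), and PARP1, a DNA damage sensor (0.995). PFN1 stood at 532, 396 and 452 CPM with overexpression, against 513, 344 and 546 CPM in WT. An r of 0.9 or more was reached by 270 of the 10549 genes with MCU and by 597 with VDAC1.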
